A study of Mus musculus with 19 samples.

Results

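The genes described here are 10 inhibitory and paired immune receptors of myeloid cells, namely Siglece, Cd33, Cd300a, Cd300lf, Cd300ld, Pilra, Lilrb4a, Lilr4b, Sirpa and Pirb. They were taken by name from the 56980 genes of the count table, and all 10 passed the filter on low counts that left 18739 genes for testing. The data were RNA-sequencing libraries of CD11b+ cells, isolated with magnetic beads from the brains of 19 male mice aged 3 to 4 months, each library from 1 mouse. Wildtype (WT) littermates and PARK7/DJ-1 knockout (KO) mice had received LPS, a bacterial endotoxin, in the abdomen at 4 µg/g body weight, or PBS (saline) as vehicle, and were killed 6 h later. The groups were 4 WT mice with PBS, 5 KO mice with PBS, 5 WT mice with LPS and 5 KO mice with LPS. The KO line carries a gene-trap allele of Park7 in all cells and had been backcrossed to C57BL/6NCrl, so the genotype was not limited to the CD11b+ cells. The labels call the cells microglia, but beads against CD11b also take other myeloid cells. The study asked how the loss of DJ-1, a protein that guards cells against oxidative stress, alters the response of microglia to systemic inflammation.

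Paired receptors are families of neighbouring genes whose products share a similar outer part but send opposite signals. The inhibitory members carry ITIMs, short tyrosine motifs in the cytoplasmic tail that, once phosphorylated by Src family kinases, recruit the phosphatases SHP-1 (Ptpn6), SHP-2 (Ptpn11) or SHIP-1 (Inpp5d) and dampen activation. The activating partners have short tails and signal through adaptors with an ITAM, DAP12 (Tyrobp) or the Fc receptor gamma chain (Fcer1g). In microglia and other brain macrophages such receptors read sialic acids, CD47, MHC class I or exposed membrane lipids on neighbouring cells, and Sirpa and Cd33 are among the best known of them.

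Library totals ranged from 11936364 to 22788884 counts with a median of 17211939, so that 3 counts corresponded to 0.139 to 0.256 CPM (a library's counts scaled to a common total). Park7 lay between 20.6 and 32.1 CPM in the WT libraries and between 0.457 and 5.38 CPM in the KO libraries, with no overlap. Markers of microglia were abundant in every library, with summed levels of 7 genes between 5336 and 26791 CPM. Of 6 lymphocyte markers, 1 was at 0 in each group and the sum of all 6 did not exceed 7.997 CPM. The library of KO LPS mouse 5 stood apart from the rest on the first 2 principal components, and the calls below were also made without it. Library sizes were corrected by TMM normalisation first. P-values come from the quasi-likelihood test of edgeR, adjusted over all genes tested after Benjamini and Hochberg, and errors after ± are SD over mice.

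After LPS, 6 of the 10 receptor genes rose and 2 fell in WT mice, and the same 6 rose and the same 2 fell in KO mice. The genes that rose were Cd300lf, Pilra, Lilr4b, Lilrb4a, Pirb and Siglece, and those that fell were Sirpa and Cd300a. Cd33 and Cd300ld did not pass the test in either genotype. A gene was called at an adjusted p under 0.05 with a log2FC of at least 0.5 in size, a rule that 18.4% of all genes tested met as higher and 17.4% as lower in WT mice, and 20.1% and 19% in KO mice. The median log2FC of the 10 genes was 2.01 in WT and 1.90 in KO mice, beside −0.06 and −0.01 over all genes tested. The 10 genes were chosen with earlier results of these data known, so these shares and medians describe them and test no receptor class. All 8 called genes had CPM ranges that did not overlap between PBS and LPS in either genotype, as had 37.8% of all genes tested in WT and 32.8% in KO mice. Without KO LPS mouse 5 all these calls were the same. In bulk samples, fewer cells of a type and less RNA per cell cannot be told apart.

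**Figure D1:**
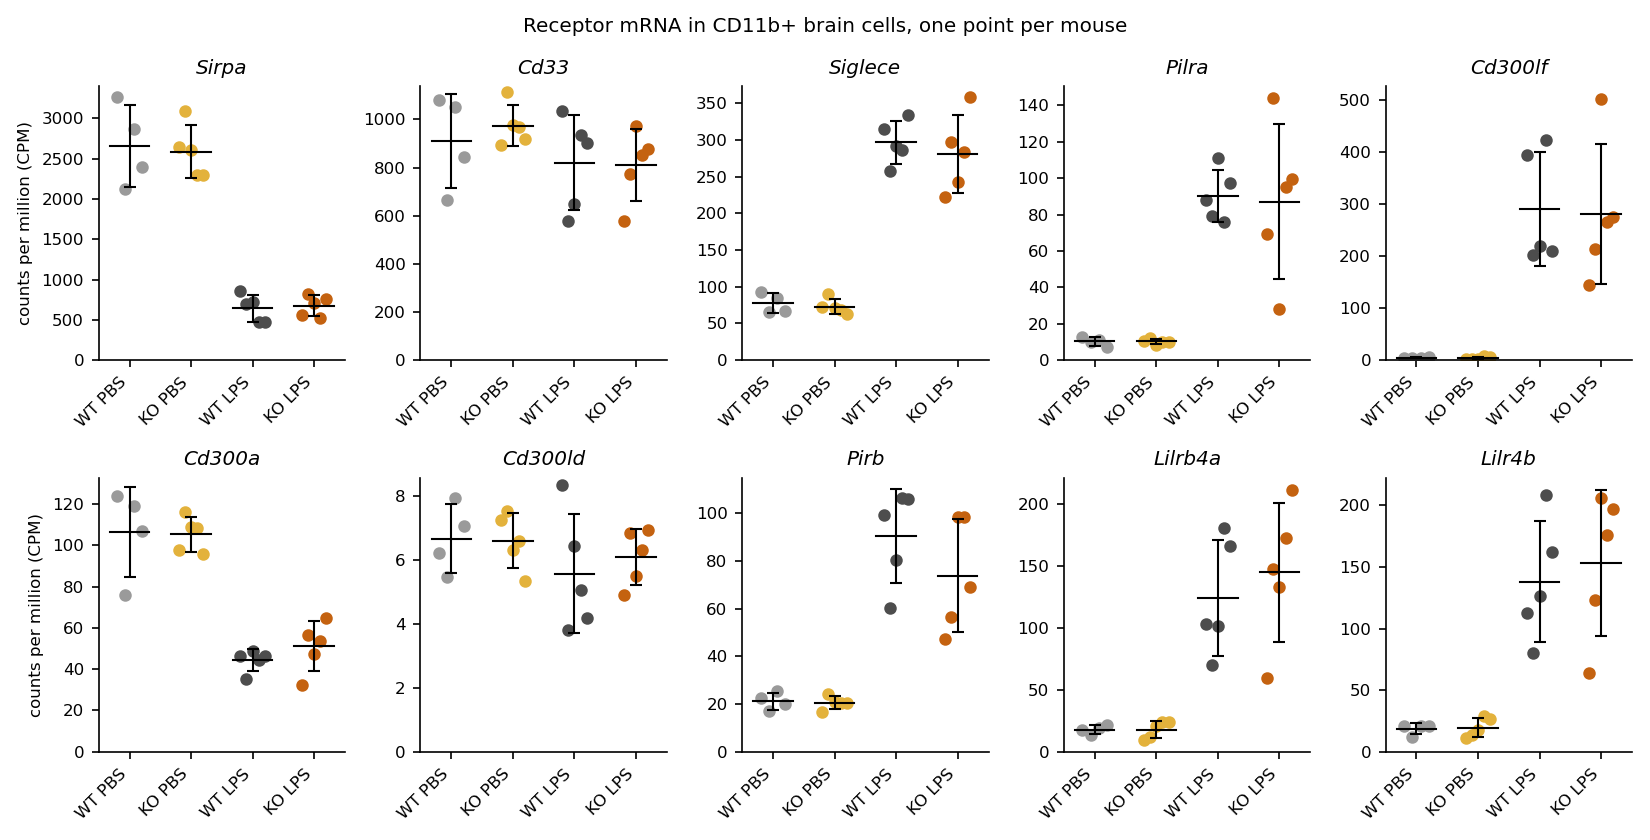
CPM of each receptor gene (vertical axis, linear from 0, own scale per panel) in the 4 groups, with 1 point per mouse, a line at the group mean and bars of 1 SD. In 8 panels the LPS points lie wholly above or below the PBS points, while Cd33 and Cd300ld overlap, and WT and KO points overlap in all 10 panels.

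Siglece and Cd33 encode sialic acid-binding lectins (Siglecs), and their genes are neighbours on chromosome 7. On GRCm39, Cd33 spans chr7:43173634-43193875 and Siglece chr7:43298405-43309607, both on the minus strand. Siglec-E carries an ITIM and is a known brake on the response of macrophages to endotoxin. Human CD33 is known as a risk gene for Alzheimer's disease that is expressed by microglia. The promoters (250 bases before and 50 after the RefSeq start, printed 5′ to 3′ on the coding strand, from RefSeq on GRCm38.p6) are shown because Siglece rose after LPS while its neighbour Cd33 did not pass the test. The window of Cd33 lies inside the GENCODE gene and not at its 5′ end. Capitals mark matches to the motifs searched, which are described with all promoters below.
Siglece, exact match at chr7:43309536-43309835 of GRCm39: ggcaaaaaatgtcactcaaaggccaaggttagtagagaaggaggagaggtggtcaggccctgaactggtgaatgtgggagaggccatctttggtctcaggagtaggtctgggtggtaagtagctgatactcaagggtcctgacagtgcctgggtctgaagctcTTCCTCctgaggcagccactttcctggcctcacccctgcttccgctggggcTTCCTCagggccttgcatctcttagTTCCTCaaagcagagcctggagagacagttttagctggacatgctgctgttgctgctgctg
Cd33, exact match at chr7:43182546-43182845 of GRCm39: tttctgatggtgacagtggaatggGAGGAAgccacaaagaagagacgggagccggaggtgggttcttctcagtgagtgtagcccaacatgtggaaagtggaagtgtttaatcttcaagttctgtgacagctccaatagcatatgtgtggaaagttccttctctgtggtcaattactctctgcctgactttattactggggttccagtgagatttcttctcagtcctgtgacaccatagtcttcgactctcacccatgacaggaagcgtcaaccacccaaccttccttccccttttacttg

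Siglece stood at 93.2, 65.8, 84.8 and 67.2 CPM in the 4 WT mice with PBS and at 314, 257, 291, 286 and 334 CPM in the 5 WT mice with LPS. In KO mice it was at 72.4, 90.0, 70.6, 68.8 and 63.5 CPM with PBS and at 222, 297, 242, 283 and 358 CPM with LPS. Every LPS library lay above every PBS library. Siglece rose by a log2FC of 1.93 ± 0.15 (SE; adjusted p = 1.37e-08 by edgeR, 3.81-fold) in WT and 1.94 ± 0.14 (adjusted p = 3.00e-09) in KO mice. Per kb of exon, Cd33 was the higher of the pair in all 19 libraries. It stood at 1080.0, 665, 1052 and 844 CPM in WT mice with PBS and at 1036, 579.6, 650.0, 936 and 902 CPM in WT mice with LPS. KO mice showed 895, 1112, 978, 969 and 918 CPM with PBS and 579, 772, 973, 853 and 878 CPM with LPS. The groups overlapped, and the log2FC of Cd33 was −0.15 (95% interval −0.54 to 0.24, adjusted p = 0.566 by edgeR) in WT and −0.27 (−0.63 to 0.10, adjusted p = 0.236) in KO mice.

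The Cd300 receptors bind phospholipids and other membrane lipids, among them those that dying cells expose. Cd300a and Cd300lf carry ITIMs, and Cd300ld is a short-tailed receptor that signals through the Fc receptor gamma chain. The 3 genes lie in a cluster on chromosome 11, with Cd300a at chr11:114768840-114795480 on the plus strand, Cd300ld at chr11:114873099-114880748 and Cd300lf at chr11:115007040-115024818 on the minus strand of GRCm39. The promoters of the inhibitory members at either end of the cluster are shown, since Cd300lf had the largest rise of the 10 genes and Cd300a fell. The window of Cd300a, too, lies inside the GENCODE gene.
Cd300lf, exact match at chr11:115024769-115025068 of GRCm39: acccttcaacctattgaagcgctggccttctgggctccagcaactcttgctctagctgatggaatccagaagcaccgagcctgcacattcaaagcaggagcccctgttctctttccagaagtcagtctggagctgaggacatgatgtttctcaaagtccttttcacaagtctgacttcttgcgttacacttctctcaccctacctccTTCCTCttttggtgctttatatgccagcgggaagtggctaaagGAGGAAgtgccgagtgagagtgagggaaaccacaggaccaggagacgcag
Cd300a, exact match at chr11:114780617-114780916 of GRCm39: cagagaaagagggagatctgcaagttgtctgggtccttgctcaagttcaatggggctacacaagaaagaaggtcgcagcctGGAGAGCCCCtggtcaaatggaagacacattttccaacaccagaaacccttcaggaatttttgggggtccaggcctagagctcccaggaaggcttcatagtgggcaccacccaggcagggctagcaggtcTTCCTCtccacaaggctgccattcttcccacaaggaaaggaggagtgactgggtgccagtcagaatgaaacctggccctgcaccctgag

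Cd300lf was the lowest of the 10 genes per kb of exon with PBS, at 3.65, 4.85, 3.61 and 5.46 CPM in WT and 1.60, 3.14, 2.08, 7.23 and 5.73 CPM in KO mice, from 26 to 138 counts per library. With LPS it reached 395, 202, 220.2, 423 and 209 CPM in WT and 145, 214, 501, 265 and 276 CPM in KO mice. The lowest LPS library was far above the highest PBS library in both genotypes. The log2FC of Cd300lf was 6.04 ± 0.49 (SE; 95% interval 5.01 to 7.08, adjusted p = 2.21e-08 by edgeR) in WT and 6.14 ± 0.45 (5.20 to 7.08, adjusted p = 3.58e-09) in KO mice, or 65.9-fold and 70.5-fold. The spread between mice was wide after LPS, with a coefficient of variation of 37.8% in WT and 47.9% in KO mice against 9.88% and 18.9% for Siglece. The highest Cd300lf value belonged to KO LPS mouse 3, without which the KO log2FC was 5.82, and without KO LPS mouse 5 it was 6.15.

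Cd300a moved the other way from a higher starting level. It stood at 124, 75.9, 119 and 107 CPM in WT mice with PBS and at 46.4, 35.1, 48.9, 44.7 and 46.4 CPM with LPS. In KO mice the PBS values were 97.7, 116, 109, 108.2 and 95.8 CPM and the LPS values 32.5, 56.6, 47.6, 53.9 and 65.0 CPM. No LPS value reached a PBS value, and Cd300a fell by 1.27 ± 0.17 on the log2 scale (SE; adjusted p = 5.77e-06 by edgeR) in WT and by 1.04 ± 0.16 (adjusted p = 2.35e-05) in KO mice. Cd300ld was low throughout, between 3.81 and 8.35 CPM over all 19 libraries. Its log2FC was −0.26 (95% interval −0.71 to 0.20) in WT and −0.11 (−0.54 to 0.31) in KO mice, with 49 to 163 counts per library. The inhibitory pair thus exchanged rank: in mean CPM per kb of exon, Cd300a was 25.4-fold above Cd300lf in WT mice with PBS, and Cd300lf was 6.25-fold above Cd300a with LPS. By the length of the canonical transcript alone these ratios were 9.83-fold and 16.1-fold.

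Pilra (chr5:137820214-137834543, minus strand, GRCm39) is the inhibitory member of the paired immunoglobulin-like type 2 receptors and binds sialylated O-glycans on proteins such as PIANP. It stood at 12.98, 9.82, 11.4 and 7.08 CPM in WT mice with PBS and at 88.3, 79.2, 111, 76.0 and 97.5 CPM with LPS. In KO mice it was at 10.8, 12.2, 8.53, 10.1 and 9.83 CPM with PBS and at 69.2, 144, 27.9, 94.97 and 99.6 CPM with LPS. All LPS values were above all PBS values, with the value of KO LPS mouse 3 far below the other LPS mice. Pilra rose by a log2FC of 3.13 ± 0.33 (SE; adjusted p = 4.24e-07 by edgeR) in WT and 3.08 ± 0.30 (adjusted p = 1.26e-07) in KO mice, and by 3.31 in KO mice without mouse 3. Thus the same KO mouse had the highest Cd300lf and the lowest Pilra among the 10 LPS libraries. The activating partners Pilrb1 and Pilrb2 lie next to Pilra and rose by 3.92 ± 0.47 and 3.90 ± 0.43 (SE) in WT mice, from means of 0.612 and 0.433 CPM to 9.39 and 6.56 CPM. Both reached the filter on low counts through the LPS libraries alone, so a rise was the only call open to them.

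Pirb (chr7:3714408-3723416, minus strand, GRCm39) encodes an ITIM receptor for MHC class I and is the inhibitory counterpart of the Pira genes. It stood at 22.4, 17.0, 25.4 and 20.1 CPM in WT mice with PBS and at 99.0, 60.3, 80.3, 106 and 106 CPM with LPS. KO mice had 16.6, 24.2, 20.7, 20.4 and 20.4 CPM with PBS and 47.4, 56.3, 98.2, 98.3 and 69.0 CPM with LPS. The treatments did not overlap in either genotype. Pirb rose by 2.09 ± 0.22 (log2FC ± SE, adjusted p = 4.94e-07 by edgeR) in WT and by 1.85 ± 0.20 (adjusted p = 5.38e-07) in KO mice. Of the 75-base windows of the Pirb transcript, 31.6% also occurred in transcripts of another gene, mostly Pira genes, so part of its reads could have come from them.

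Lilrb4a and Lilr4b are adjacent near-copies on chromosome 10, at chr10:51367027-51372707 and chr10:51356728-51362799 on the plus strand of GRCm39. Lilrb4a encodes gp49B, an inhibitory receptor with ITIMs, and Lilr4b encodes gp49A, which lacks them. Their coding sequences of 1005 and 909 bases (GENCODE M39) were identical at 871 of 907 aligned bases, or 96.0%. The stretch of 75 coding bases with the most differences is shown because reads can be told apart only where the genes differ, and capitals mark the bases that differ.
Lilrb4a, coding bases 227 to 301: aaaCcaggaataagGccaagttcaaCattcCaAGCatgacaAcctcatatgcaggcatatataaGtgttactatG
Lilr4b, coding bases 227 to 301: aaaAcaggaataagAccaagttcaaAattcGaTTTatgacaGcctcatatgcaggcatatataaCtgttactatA

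In the first 75 coding bases, by comparison, the pair differed at 1 base. All 75-base windows of the canonical Lilrb4a transcript also occurred in another gene, as did 17.4% of those of Lilr4b. Both genes also lie under the readthrough gene Gm49339, whose exons covered 35.1% of the exon bases of Lilrb4a and 2.24% of those of Lilr4b, and which was listed at 0 in all 19 libraries. How shared reads were assigned is not given in the sources used here, so the levels of the pair are uncertain and are best read together. Lilrb4a stood at 17.7, 13.6, 18.99 and 21.4 CPM in WT mice with PBS and at 103, 70.4, 102, 181 and 166 CPM with LPS. In KO mice it was at 9.39, 11.6, 21.1, 23.9 and 23.8 CPM with PBS and at 59.8, 147, 133, 173 and 211 CPM with LPS. The treatments did not overlap, and Lilr4b behaved alike, with 12.2 to 21.2 CPM with PBS and 80.5 to 209 CPM with LPS in WT, and 10.9 to 28.8 CPM and 63.7 to 206 CPM in KO mice.

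Lilrb4a rose by 2.80 ± 0.37 (log2FC ± SE, adjusted p = 6.25e-06 by edgeR) in WT and 3.01 ± 0.34 (adjusted p = 7.75e-07) in KO mice. Lilr4b rose by 2.87 ± 0.37 (adjusted p = 4.93e-06 by edgeR) and 2.97 ± 0.34 (adjusted p = 9.67e-07). The ratio of Lilrb4a to Lilr4b counts stayed near parity, at 0.970 ± 0.122 and 0.898 ± 0.0806 in WT mice with PBS and LPS and at 0.924 ± 0.159 and 0.967 ± 0.206 in KO mice. The lowest ratio of all, 0.644, belonged to KO LPS mouse 3. With the counts of both genes summed, the pair remained called as higher after LPS in both genotypes.

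Sirpa (chr2:129434039-129474148, plus strand, GRCm39) encodes the ITIM receptor for CD47, the "do not eat me" signal that restrains phagocytosis. It was the most abundant of the 10 genes in PBS mice, at 3262, 2118, 2869 and 2392 CPM in WT and 2645, 3092, 2612, 2297 and 2297 CPM in KO mice. With LPS it stood at 858, 692, 719, 478 and 473 CPM in WT and 559, 825, 711, 521 and 764 CPM in KO mice. Every LPS library lay below every PBS library. Sirpa fell by 2.05 ± 0.20 on the log2 scale (SE; adjusted p = 1.43e-07 by edgeR, 4.13-fold) in WT and by 1.94 ± 0.19 (adjusted p = 1.29e-07, 3.83-fold) in KO mice. The ligand gene Cd47, measured in the same CD11b+ fraction, did not pass the test in WT mice, with a log2FC of 0.50 ± 0.20 (SE, adjusted p = 0.0559 by edgeR). It passed without WT LPS mouse 2 or 3 or KO LPS mouse 1, at 0.60, 0.61 and 0.52.

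**Figure D2:**
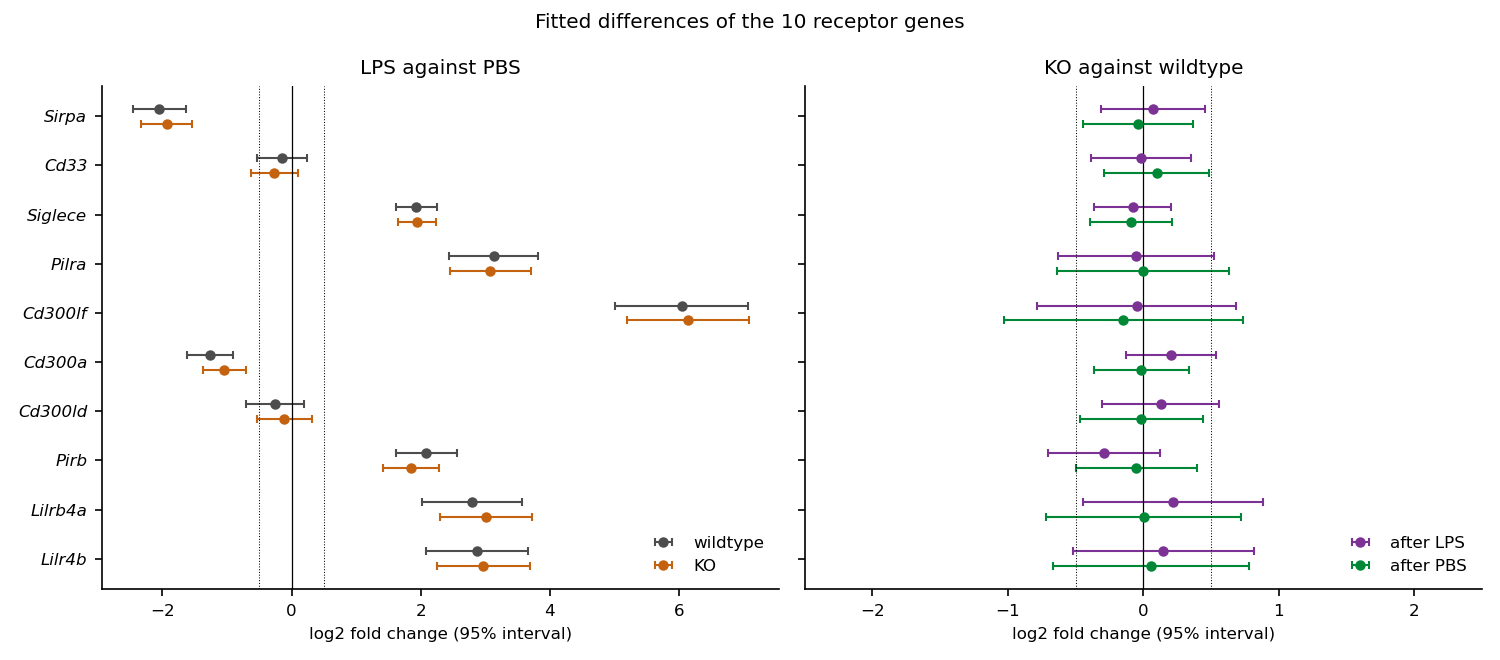
Fitted log2FC (horizontal axis) of the 10 receptor genes with 95% intervals from edgeR, LPS against PBS on the left and KO against wildtype on the right, with dotted lines at 0.5 in either direction. WT and KO estimates lie close together for every gene on the left, from −2.05 for Sirpa to 6.14 for Cd300lf, and every interval on the right includes 0.

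To compare levels between genes, CPM were divided by the length of each gene's merged exons in kb. On this scale Sirpa led in WT mice with PBS, at 380.2 ± 72.5 CPM per kb (n = 4), followed by Cd33 at 98.2 ± 21.0, Cd300a at 21.6 ± 4.39 and Siglece at 18.6 ± 3.22. Sirpa and Cd33 did not overlap, nor did Cd33 and Cd300a, while Cd300a and Siglece did. The next were Pirb at 4.63 ± 0.775, Lilr4b at 3.46 ± 0.814, Lilrb4a at 3.41 ± 0.625 and Pilra at 3.34 ± 0.813 CPM per kb, neighbours whose ranges overlapped. Cd300ld at 2.52 ± 0.408 overlapped with Pilra, and Cd300lf came last at 0.853 ± 0.178 CPM per kb, below Cd300ld in all 4 mice. The order of the 10 genes by mean level was the same in KO mice with PBS. Divided by the length of the canonical transcript alone, the first 4 and the last 3 kept their order in both genotypes, but Lilrb4a and Lilr4b, at 12.3 and 10.2 CPM per kb in WT mice, came before Pirb at 5.50.

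After LPS the levels drew together. In WT mice Sirpa stood at 92.0 ± 23.7, Cd33 at 88.6 ± 21.1, Siglece at 71.1 ± 7.02 and Cd300lf at 56.3 ± 21.2 CPM per kb (n = 5), each overlapping with the next. Sirpa exceeded Cd33 in 3 of 5 mice. Pilra, Lilr4b, Lilrb4a and Pirb lay between 29.3 ± 4.63 and 19.7 ± 4.33 CPM per kb and overlapped from each to the next, and Cd300a at 8.999 ± 1.09 and Cd300ld at 2.11 ± 0.701 were last. The KO mice with LPS had the same order of means on this scale. By canonical transcript length the order differed, with Cd300lf first at 154, Cd33 at 143 and Sirpa at 141 CPM per kb in WT mice, and Cd300lf at 149, Sirpa at 148 and Cd33 at 141 in KO mice.

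Summed over the 10 genes, the level was 537 ± 102 CPM per kb in WT and 532 ± 56.2 in KO mice with PBS, and 417 ± 57.6 and 418 ± 77.3 after LPS, with ranges that overlapped between treatments. Its make-up changed more than its size. Sirpa held 70.8% ± 1.22 of the sum in WT mice with PBS and 22.4% ± 6.26 after LPS, and 69.4% ± 2.11 and 23.4% ± 4.04 in KO mice. Cd300lf went from 0.167% ± 0.0616 to 13.2% ± 3.55 in WT and Siglece from 3.49% ± 0.192 to 17.2% ± 1.85, while Cd33 kept 18.2% ± 0.953 and 21.0% ± 2.66. The choice of gene length moved these shares. Divided by the length of the canonical transcript alone, Cd300lf held 20.3% of the sum in WT mice with LPS beside 19.6% for Sirpa, and 19.1% beside 20.2% in KO mice. Siglece then held 10.3% in WT mice with LPS, Lilrb4a 11.4% and Lilr4b 10.1%, where merged exons gave 17.2%, 5.64% and 6.05%.

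**Figure D3:**
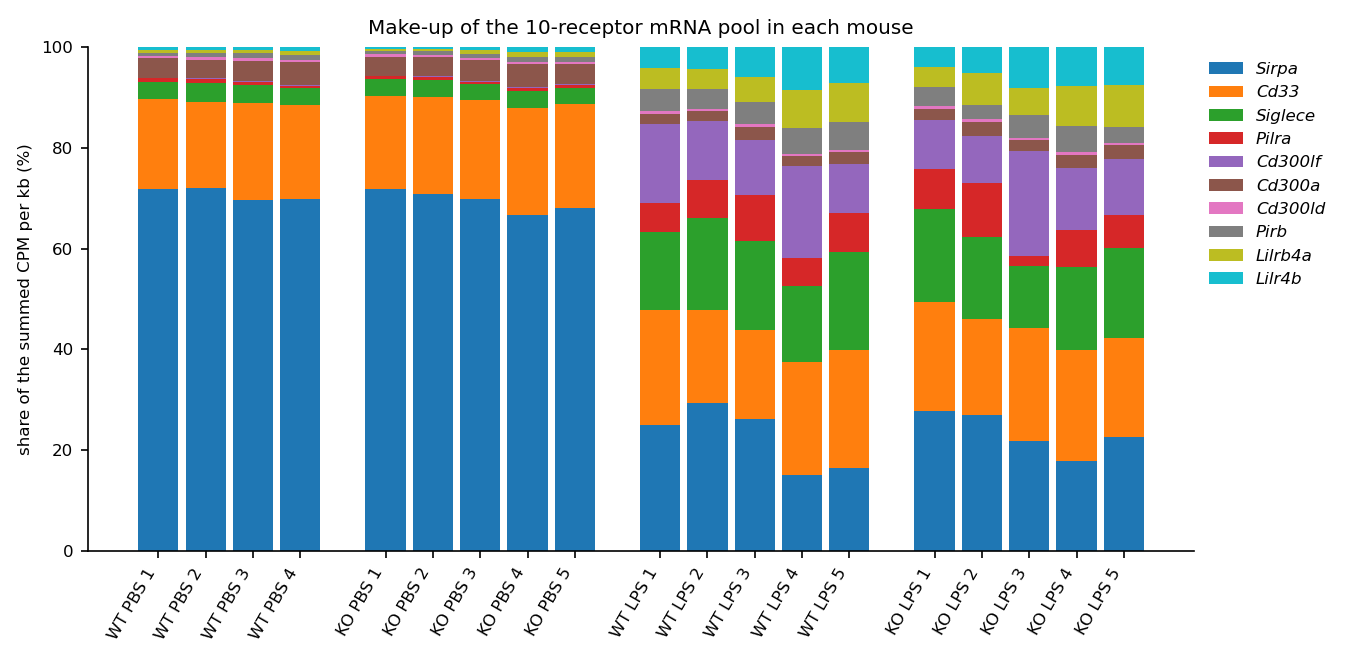
Share of each receptor gene in the summed CPM per kb of the 10 genes (vertical axis, percent), 1 stacked bar per mouse. Sirpa fills most of every PBS bar, 70.8% on average in WT mice, and 22.4% of the WT LPS bars, where Siglece, Cd300lf, Pilra and the Lilrb4 pair take more of the bar.

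The comparison of genotypes asked whether DJ-1 changes the levels of these receptors. None of the 10 genes was called in KO against WT mice by edgeR after LPS or after PBS, at an unadjusted p under 0.05 with a log2FC of at least 0.5 in size. This rule called 1.31% of all genes tested after LPS and 0.800% after PBS. The smallest unadjusted p among the 10 genes was 0.156 after LPS and 0.538 after PBS, and DESeq2 called none of them either. The CPM ranges of WT and KO mice overlapped for all 10 genes under both treatments, while 0.219% of all genes tested did not overlap after LPS and 0.971% after PBS. After LPS the log2FC ran from −0.29 for Pirb to 0.22 for Lilrb4a, with 5 genes above and 5 below 0, and after PBS from −0.15 for Cd300lf to 0.10 for Cd33.

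These data bounded the difference between genotypes more tightly for some receptors than for others. After LPS the 95% interval of KO against WT ran from −0.36 to 0.20 for Siglece, from −0.38 to 0.35 for Cd33 and from −0.32 to 0.45 for Sirpa, all inside 0.5 in either direction. For Pirb it ran from −0.70 to 0.12, for Lilrb4a from −0.44 to 0.88 and for Cd300lf from −0.79 to 0.69, so a difference past 0.5 was within the interval. The same held for Pilra (−0.63 to 0.52), Lilr4b (−0.52 to 0.81), Cd300a (−0.13 to 0.54) and Cd300ld (−0.30 to 0.56). After PBS the intervals of Cd300lf (−1.03 to 0.74), Pilra (−0.64 to 0.63), Lilrb4a (−0.72 to 0.72) and Lilr4b (−0.67 to 0.78) passed 0.5, and those of the others did not. In the comparison after LPS, without KO LPS mouse 3 the difference of Pilra moved from −0.05 to 0.17 and that of Cd300lf from −0.05 to −0.37, neither past the threshold. Without KO LPS mouse 5 they were −0.11 and −0.04, and that of Lilrb4a moved from 0.22 to 0.042. Leaving out 1 library at a time gave 0.042 to 0.42 for Lilrb4a and −0.42 to −0.16 for Pirb, whose unadjusted p by edgeR was 0.0539 without KO LPS mouse 3. Without KO LPS mouse 1, Cd300a stood at 0.33 with an unadjusted p of 0.022 by edgeR, under the limit of 0.5.

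The interaction of genotype and LPS, which tests whether the response to LPS differed, was called for none of the 10 genes by edgeR at an adjusted p under 0.05, as for 0% of all genes tested, and DESeq2 called none. At an unadjusted p under 0.05 the edgeR interaction held 0 of the 10 genes and 0.961% of all genes tested. The estimates ran from −0.24 for Pirb, with a 95% interval of −0.85 to 0.37, to 0.22 for Cd300a, with one of −0.26 to 0.70.

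The families were then followed along the chromosomes, taking every protein-coding gene of a family within 600 kb of one of the 10 genes. In the Cd300 cluster, 7 of 11 genes were tested, and 2 rose and 3 fell in WT mice. Between Cd300a and Cd300lf, Cd300c2 fell by 1.62 ± 0.20 (log2FC ± SE) and Cd300ld3 by 1.93 ± 0.60. Cd300e rose by 1.34 ± 0.49 from a mean of 0.597 CPM, near the filter cutoff, to 1.51 CPM. Cd300lb had a log2FC of 0.32 ± 0.35 that did not pass the test. In KO mice 1 gene of this cluster rose, Cd300lf, and 3 fell. In the Siglec cluster, Siglecf fell by 1.28 ± 0.32 and Siglecg by 1.19 ± 0.33 in WT mice, while Siglecl1, at 0.290 CPM in WT mice with PBS, rose by 2.76 ± 0.74. In KO mice Siglecg had a log2FC of −0.65 that did not pass the test (adjusted p = 0.0954 by edgeR), so 1 gene of this cluster fell there. Siglecl1 reached the filter through the LPS libraries alone and Cd300ld3 through the PBS libraries alone, so each could be called in a single direction only. Directions were thus mixed among neighbours in both of these clusters.

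In the cluster of Pirb, 4 of the 7 tested genes, Pira1, Pira2, Pira12 and Pira13, reached the filter through the LPS libraries alone. Their means were at most 0.455 CPM in WT mice with PBS, so a rise was the only call open to them. Of the other 3 genes, Pirb and Lilra6 rose in both genotypes. Lilra6 rose by 3.28 ± 0.44 (log2FC ± SE) in WT mice, from a mean of 0.621 CPM, near the filter cutoff, to 6.05 CPM. Lilra5, an activating receptor at 22.2 CPM with PBS, fell by 1.88 ± 0.21 (SE). The Pira genes share long stretches with each other and with Pirb, so their separate values are uncertain. In the Pilr cluster Pilra alone could be called in either direction, and it rose in each genotype, as did both genes of the Lilrb4 pair.

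**Figure D4:**
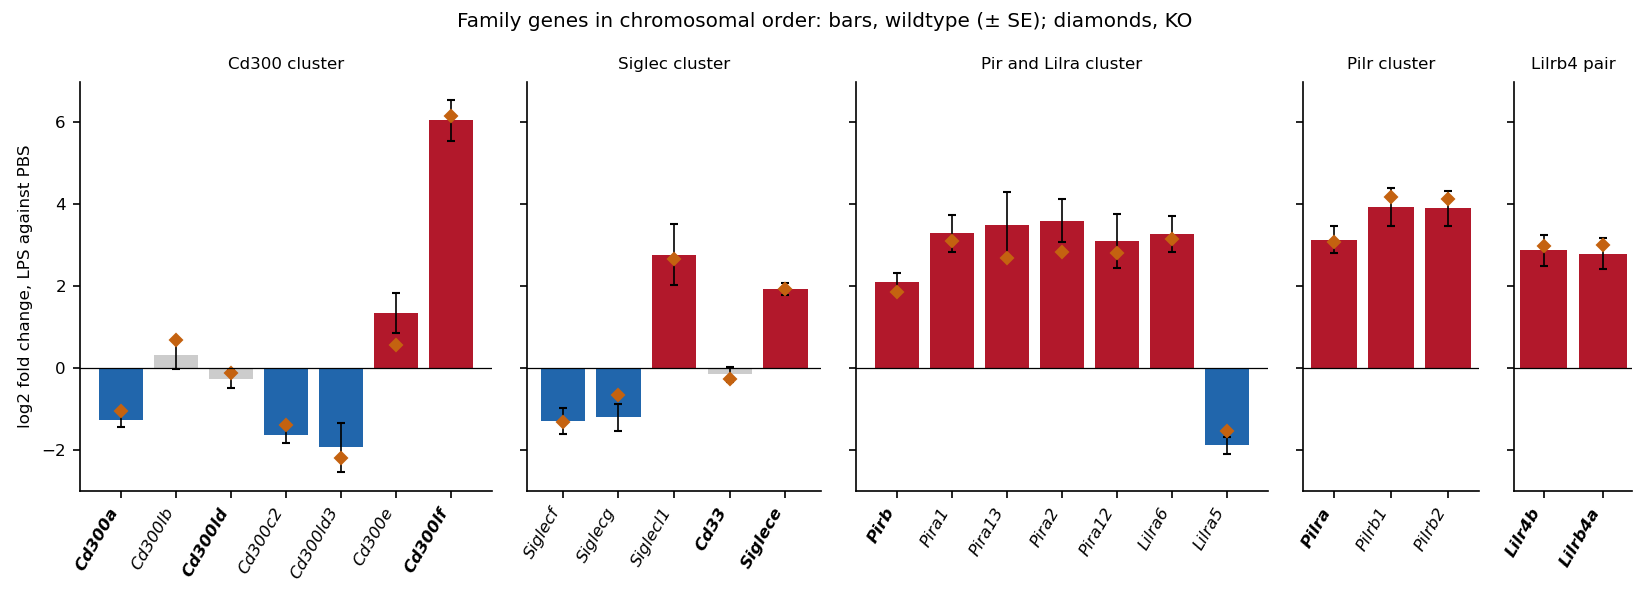
Log2FC of LPS against PBS (vertical axis) for the tested genes of each family in chromosomal order, as bars for WT mice with 1 SE (red called higher, blue called lower, grey not called) and diamonds for KO mice. Names in bold are among the 10 receptors, and Cd300a and Cd300lf, at either end of their cluster, point in opposite directions at −1.27 and 6.04.

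RefSeq promoters were at hand for 8 of the 10 genes, and each matched GRCm39 exactly at 1 place within or next to its gene. The RefSeq starts of Cd33 and Cd300a lay 11280 and 12027 bases inside the GENCODE gene, counted from its 5′ end, so these windows may not be the promoter of that end, while the other 6 lay 0 to 36 bases from it. They were searched on both strands for GAGGAA, a core of PU.1 sites, TGANTCA for AP-1 and, by name, for the interferon-stimulated response element and the NF-κB consensus. GAGGAA occurred in 7 of the 8, with 3 matches each in Siglece and Pirb, 2 in Cd300lf and 1 each in Cd33, Cd300a, Cd300ld and Pilra, and in 28.3% of all 32851 promoters of the table. The 7 included genes that rose, genes that fell and genes that did not pass the test, and Lilr4b, which rose, had none of the 4 motifs. The interferon-stimulated response element was found in Pilra alone (3.44% of all promoters), the NF-κB consensus in Cd300a and Cd300ld (8.46%), where in Cd300ld it overlapped with GAGGAA, and AP-1 in none of the 8 (7.81%). PU.1 is the transcription factor that defines myeloid cells. A match describes these letters and not a bound site.

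Among 20 activating partners of the paired families, 18 were tested. Of these, 9 reached the filter on low counts through the LPS libraries alone and could be called only as higher, among them the Pira genes, Pilrb1, Pilrb2 and Trem3. Of the other 9, 4 rose and 4 fell in WT mice with a median log2FC of 0.32, and 3 rose and 4 fell in KO mice with a median of 0.55. Trem1, an amplifier of inflammatory signals that uses DAP12, rose most, by 5.13 ± 0.44 (SE) from 2.96 to 103 CPM in WT mice. Trem3 had a log2FC of 4.03 ± 0.55. The partners that fell were Lilra5, Trem2 by 1.79 ± 0.21, Siglech by 1.76 ± 0.20 and Cd300c2, of which Trem2, a lipid sensor, and Siglech are characteristic of resting microglia. Trem3, Pilrb1 and Pilrb2 started from 0.377, 0.612 and 0.433 CPM in WT mice with PBS. Such low starts follow from passing the filter through the LPS libraries alone. Among genes not limited in this way, Trem1 started from 2.96, Trem2 from 632 and Siglech from 1012 CPM.

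Of 16 genes listed as other inhibitory receptors of myeloid cells, all tested, 5 rose and 9 fell in WT mice, with a median log2FC of −0.88, and 5 rose and 8 fell in KO mice. Cd244a, a receptor of the SLAM family, rose by 4.98 ± 0.27 (SE) from 2.67 to 84.6 CPM. Cd72 rose by 2.75 ± 0.42, Siglec1 by 1.82 ± 0.25, and Fcgr2b, the inhibitory Fc receptor, by 1.64 ± 0.19. Siglec1 (sialoadhesin) is a lectin of macrophages known for adhesion, and its tail carries no ITIM, so it does not meet the definition given above. Without it, 4 of 15 rose and 9 fell in WT mice, and 4 rose and 8 fell in KO mice. Cd200r1, Vsir, Havcr2 and Cd244a are also known to lack a classical ITIM, and without these and Siglec1, a choice made after the values were seen, 3 of 11 rose and 6 fell in WT mice and 3 rose and 5 fell in KO mice. Lair1, an ITIM receptor for collagen, fell by 2.19 ± 0.32 from 649 to 142 CPM, and Cd200r1 fell by 1.97 ± 0.32, Vsir by 1.91 ± 0.31 and Cd22 by 1.51 ± 0.36. The ones that fell included abundant genes, with Vsir at 2617 CPM with PBS.

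Of the 112 genes tested in the other lists and the marker lists, 1 was called between genotypes by edgeR, after LPS. This was 0.893%, below the 1.31% of all genes tested that the rule called, so the call is no result about the lists. The gene was Siglec1. Its range was 51.6 to 135 CPM in KO and 93.7 to 180 CPM in WT mice with LPS, and the log2FC was −0.56 ± 0.22 (SE; unadjusted p = 0.0227, adjusted p = 1.00 by edgeR). The ranges overlapped. Without WT LPS mouse 1 it was −0.40, without KO LPS mouse 1 −0.45 and without KO LPS mouse 3 −0.42, all no longer past the threshold. With only the WT and KO LPS libraries in the fit, the unadjusted p was 0.0597 by edgeR.

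Of 19 adaptors, kinases and phosphatases of these receptors, 8 rose and 2 fell in WT and 8 rose and 3 fell in KO mice, with medians of 0.02 and 0.12. Among the Src family kinases that phosphorylate ITIMs, Fgr rose by 5.06 ± 0.30 (SE) and Lyn by 1.15 ± 0.16 in WT mice. Dok2, a docking protein that restrains signalling, rose by 2.17 ± 0.21. Csk, the kinase that restrains Src kinases, fell by 0.63 ± 0.18 and Inpp5d by 0.63 ± 0.19. Ptpn6 had a log2FC of −0.09 ± 0.17 (adjusted p = 0.724 by edgeR), while Ptpn11 rose by 0.66 ± 0.22 (adjusted p = 0.0203), which did not pass without WT PBS mouse 1, 3 or 4, at 0.58, 0.62 and 0.60. Of the adaptors, Fcer1g rose by 0.91 ± 0.18 and Tyrobp had a log2FC of −0.45 ± 0.20 (adjusted p = 0.0875 by edgeR).

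Of 22 ligands and sialic acid enzymes, 21 were tested, and 5 rose and 7 fell in WT and 4 rose and 7 fell in KO mice, with medians of 0.10 and 0.02. These genes were measured in the same CD11b+ fraction as the receptors, so ligands on other brain cells were not measured. The MHC class I genes H2-K1 and H2-D1, whose products Pirb binds, rose by 1.498 ± 0.16 and 1.17 ± 0.16 (log2FC ± SE) in WT mice. Among the sialyltransferases that build Siglec ligands, St3gal1 rose by 2.96 ± 0.39 and St3gal4 by 1.13 ± 0.13. St6gal1 fell by 2.91 ± 0.26 from 151 to 20.1 CPM, St8sia4 by 2.06 ± 0.17, St3gal5 by 1.62 ± 0.16 and St3gal2 by 1.53 ± 0.15.

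Markers of other cells moved with LPS. All 7 tested microglial markers fell in both genotypes, with summed levels of 16577 to 26362 CPM in WT mice with PBS and 5336 to 9527 CPM with LPS, and 17701 to 26791 and 5939 to 9829.9 CPM in KO mice. On the log2 scale Gpr34 fell by 5.09, P2ry12 by 3.66, Olfml3 by 2.15 and Sall1 by 2.08 in WT mice. Of 6 monocyte markers, 5 rose in each genotype. The sum of all 6 went from 167 to 188 CPM with PBS to 313 to 455 CPM with LPS in WT mice. In KO mice it went from 134 to 196 CPM to 198 to 471 CPM. F13a1, not called in either genotype, made up most of the sum with PBS. Its medians were 134 CPM with PBS and 92.2 CPM with LPS in WT, and 115 and 80.9 CPM in KO mice. Plac8 rose from 0.970 to 80.6 CPM and Ly6c2 from 1.31 to 50.8 CPM in WT mice, and Chil3 rose by 2.92 and Vcan by 2.54 on the log2 scale, none of the 6 being at 0 in any group. Of 9 neutrophil markers, 4 rose and 1 fell in WT mice, with sums of 429 to 628 CPM with PBS and 479.9 to 748 CPM with LPS, and 406 to 648 and 289.7 to 744 CPM in KO mice. Csf3r, which made up most of the sum in WT mice with PBS, fell from 466 to 299.6 CPM. The markers that rose in WT mice were Cxcr2 from 1.81 to 32.6 CPM, Mmp8 from 6.19 to 41.4 CPM, S100a8 from 20.2 to 93.2 CPM and S100a9 from 9.80 to 42.7 CPM, with ranges that did not overlap. In KO mice these and Retnlg rose and Csf3r fell. Ly6g, the defining marker, had means of 0.740 and 0.941 CPM in WT mice and did not pass the test.

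Markers of border-associated macrophages fell in 4 of 6 cases in each genotype, and their sums were 397 to 503 CPM in WT mice with PBS and 212 to 427 CPM with LPS, which overlapped, and 379 to 491 and 211 to 372 CPM in KO mice, which did not. On the log2 scale Cd209f fell by 2.91, Lyve1 by 1.52, Cd163 by 1.17 and Cbr2 by 0.94 in WT mice. Of 8 markers of other brain cells, 2 rose and 1 fell in each genotype. Gfap of astrocytes rose from 50.6 to 165.6 CPM and Tubb3 of neurons from 1.78 to 10.5 CPM in WT mice, while Cldn5 of endothelial cells fell from 70.2 to 23.4 CPM. The sums of these 8 lay between 207 and 2697 CPM over all libraries, with group ranges that overlapped. Of the lymphocyte markers 2 were tested, and Gzma rose in each genotype, from 0.667 to 3.05 CPM in WT mice. The lymphocyte sum went from 0.869 to 1.25 CPM with PBS to 1.78 to 7.997 CPM with LPS in WT mice, without overlap, and from 0.552 to 1.20 to 0.787 to 3.69 CPM in KO mice. The part of these cells in the changes of the 10 receptors was not tested. Among the KO mice with LPS, mouse 3 had the highest monocyte sum at 471 CPM, with the highest Cd300lf, and mouse 1 the lowest at 198 CPM, with the lowest level of 8 of the 10 receptors, all but Pilra and Sirpa. Mouse 1 also had the lowest neutrophil sum, 289.7 CPM, and the highest sum of markers of other brain cells of all 19 libraries, 2697 CPM. Mouse 5 had a low monocyte sum too, 229 CPM, but the highest level of 4 receptors, Siglece, Cd300a, Cd300ld and Lilrb4a. Pirb, which had the largest estimate of the 10 for KO against WT after LPS (not called), moved with the monocyte sum in these libraries. It stood at 47.4, 56.3 and 69.0 CPM in KO LPS mice 1, 2 and 5, whose monocyte sums were 198, 245 and 229 CPM, and at 98.2 and 98.3 CPM in mice 3 and 4, with sums of 471 and 408 CPM. Among the WT mice with LPS, Pirb was lowest in mouse 2, at 60.3 CPM, where the monocyte sum was lowest too, at 313 CPM. The part of these markers in the difference of Pirb between genotypes was not tested. In the other 3 groups, the sum of markers of other brain cells was highest in WT PBS mouse 2 (2323 CPM), KO PBS mouse 1 (1950 CPM) and WT LPS mouse 2 (1723 CPM). These libraries held the lowest value of their group for 8, 5 and 8 of the 10 receptors. The part of these brain cell markers in the receptor levels was not tested.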

How the data were processed

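CD11b+ cells were isolated from the brains of 19 mice, and 1 stranded total RNA library per mouse was sequenced as paired reads of 75 bp. The authors trimmed reads with cutadapt, aligned them to GRCm39 (Ensembl 108 annotation) with STAR 2.7.9a and deposited raw counts per Ensembl gene; how shared reads and strand were counted is not given in the sources used here. Symbols came from GENCODE M39. Library totals were 11936364 to 22788884 counts.

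Counts were tested with edgeR 4.0.16 (R 4.3.3), using filterByExpr (minimum count 10, total 15), TMM and a quasi-likelihood fit of 4 groups. LPS effects were called at an adjusted p under 0.05 and a log2FC of at least 0.5 in size, KO effects at an unadjusted p under 0.05 and the same size, and the interaction at an adjusted p under 0.05. P-values measure the spread between mice. DESeq2 1.42.0 was an alternative. The text names all 10 receptors and, of each gene list, the up to 4 highest and 4 lowest called genes plus some fixed by name, with 1 gene that the rule names not reported here. The receptors and lists were chosen with earlier results of these data known.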

Additional observations from a re-analysis of the deposited data

Results flagged for a closer look

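Of 40 sets of CPM values (10 receptors in 4 groups), 1 held a sample far from the others. Lilr4b stood at 12.2 CPM in WT PBS mouse 2, while the other WT mice with PBS lay between 20.8 and 21.2 CPM, so that the gap was 0.957 of the range. The same library held the lowest WT PBS value of 8 of the 10 receptors and the lowest microglial sum, 16577 CPM, and its sum of markers of other brain cells was 2323 CPM beside 340.3 to 663 CPM in the other WT mice with PBS. The part of these values in the low Lilr4b was not tested. The gap was judged by Dixon's criterion at its 95% critical value, which by its construction sets apart about 1 in 20 groups by chance.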

How the results depend on the processing

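Calls of the 10 receptors after LPS were the same under every alternative run: DESeq2, DESeq2's size factors, no filter, at least 10 counts in every library, the groups compared alone, a replicate block, and each library left out. With the Lilrb4 pair summed, 5 of 9 features rose. No receptor was called between genotypes under any of these. Estimates near 0 changed sign for KO against WT after PBS. With the replicate block Cd300ld was 0.026, Lilrb4a −0.22 and Lilr4b −0.14. With the groups alone Pilra was 0.0059. Lilrb4a was −0.015 with DESeq2's size factors and with DESeq2, −0.024 with no filter and −0.022 with the stricter filter. Leaving out 1 library gave ranges that crossed 0 after PBS for Siglece (−0.18 to 0.010), Cd33 (−0.020 to 0.19), Cd300a (−0.14 to 0.068), Cd300lf (−0.48 to 0.0450), Cd300ld (−0.095 to 0.081), Pilra (−0.13 to 0.13), Lilrb4a (−0.12 to 0.16), Lilr4b (−0.12 to 0.21), Sirpa (−0.13 to 0.075) and Pirb (−0.14 to 0.045). After LPS it did so for Cd33 (−0.11 to 0.090), Cd300lf (−0.37 to 0.13), Pilra (−0.31 to 0.17) and Sirpa (−0.022 to 0.195). For the interaction it did so for Siglece (−0.093 to 0.10), Cd33 (−0.22 to 0.0072), Cd300lf (−0.22 to 0.43), Pilra (−0.31 to 0.18), Lilr4b (−0.058 to 0.29) and Sirpa (−0.00496 to 0.23), and for Ptpn6 after LPS in WT mice (−0.15 to 0.00331). The cause was not tested. Replicate numbers were not taken to pair the mice, since the study names no pairing. Not every pair of same-numbered deviations had a correlation over 0.1, but this cutoff cannot decide whether mice were paired. Between PBS and LPS mice of a genotype, 8 of 9 correlations were above 0, from −0.04 to 0.58 with a mean of 0.33 in WT and 0.25 in KO mice, and 11 of 18 libraries correlated best with their own number. Between genotypes they ran from −0.57 to 0.30. The block called 234 genes between genotypes after PBS, beside 150 without it. In that comparison the SE of Lilrb4a was 0.23 with the block and 0.34 without it. Over all genes, no filter called 854 genes between genotypes after LPS and 680 after PBS, the stricter filter 111 and 58, and the LPS groups alone 105, beside 245 and 150, and adjusted p-values 2 and 1. Tyrobp passed with the stricter filter, at −0.52. At this depth Pira13, at a mean of 0.0787 CPM in WT mice with PBS, lay under 3 counts.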
